A study of Mus musculus with 40 samples.

Results

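The cluster of miR-144 and miR-451a is the stretch of mouse chromosome 11 that encodes mmu-miR-144-5p, mmu-miR-144-3p and mmu-miR-451a, microRNAs best known from red blood cells. Its 3 mature microRNAs were picked by name from the 1915 rows of a count table, and all 3 had reads. Small RNA was sequenced from total blood of wild-type male C57B/6J mice aged 12, 13.5, 15 and 16.5 months, 10 libraries per age and 40 in all, to learn which circulating microRNAs change as the animals grow older. The mice were singly housed and were bled repeatedly from the retro-orbital sinus. All later bleedings followed water-maze training and a memory test, while the order at 12 months is described in conflicting ways, and the labels do not say whether any library came from mice left in the home cage. Age therefore cannot be told apart from experience of the maze or from the number of earlier bleedings. The column names of the count table were also written in a different way for the 13.5-month and for the 15-month libraries, and whether these were made or sequenced as separate sets cannot be told apart from age.

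MicroRNAs are short RNAs that guide Argonaute proteins to messenger RNAs, mainly by pairing through their seed, which is bases 2 to 8 counted from the 5′ end. The cluster is transcribed as a joint precursor in developing red cells under the transcription factor GATA1, and mature red cells, although without a nucleus, keep its products. miR-144 is cut out of its hairpin by Dicer, which can leave a microRNA from each arm, whereas the hairpin of miR-451a is too short for Dicer and is sliced by Argonaute 2 itself. Mice without the cluster have red cells that are sensitive to oxidant damage.

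The mature sequences, taken from RefSeq on the assembly GRCm38.p6 and matched by name for all 3 members, are shown because no member shares its seed with another. The authors assigned reads to a mature microRNA by their position on its precursor, with a margin of a few bases at either end. They are written 5′ to 3′ with the seed in capitals.
miR-144-5p: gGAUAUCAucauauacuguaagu
miR-144-3p: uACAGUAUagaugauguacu
miR-451a: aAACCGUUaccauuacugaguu
The only other mature microRNA of the RefSeq table with bases 2 to 7 of a member was miR-101a-3p, which shares them with miR-144-3p and differs at base 8.
miR-101a-3p: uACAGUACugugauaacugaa
miR-101a-3p was scarce in blood, with 303 counts over the 40 libraries in a row identical to that of miR-101c.

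All 3 members lie on the plus strand of chromosome 11 (GRCm38, the assembly that mm10 names). miR-144-5p occupies chr11:78073010-78073032 and miR-144-3p chr11:78073047-78073066, both within the hairpin gene Mir144 at chr11:78073005-78073070. miR-451a occupies chr11:78073186-78073207 within Mir451a at chr11:78073170-78073241, and 99 bases separate the hairpin genes. In the GENCODE M21 annotation the cluster is intergenic, with Flot2 before it and Eral1, on the minus strand, 134 bases beyond Mir451a. A predicted fold of the 72-base Mir451a hairpin placed 18 of the 22 bases of miR-451a in the 5′ arm and 4 in the loop. In the 66-base Mir144 hairpin, the 23 bases of miR-144-5p and the 20 of miR-144-3p lay wholly in opposite arms. A row exists for miR-451b, read from the minus strand at the coordinates of Mir451a, and it held 0 reads among 406820779 counts, which allows up to 0.00737 CPM (the counts-per-million scale, from the limit of 3 counts, which covers counting error only).

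The library totals ran from 2469196 to 21386209 counts, with medians of 12497974 at 12 months, 12505002 at 13.5 months, 6196820 at 15 months and 8771193 at 16.5 months. Most counts belonged to miR-486-5p, another red-cell microRNA, which the table holds in a pair of identical rows. Library totals, CPM values and abundance ranks count both rows, so CPM values are lower than with the pair entered once. With the pair entered once, the other microRNAs made up on average 13.4% of counts at 12 months, 13.1% at 13.5 months, 7.93% at 15 months and 12.2% at 16.5 months. Levels are therefore given as log2 CPM with TMM factors, which set the libraries on a common scale over all microRNAs tested. TMM factors spanned 0.242 to 0.954 at 15 months and 0.469 to 1.67 at 16.5 months. A library of 16.5 months, number 7 in column order, stood apart from the other 39 by its connectivity, a summed correlation with them (Z = -3.27), and number 6 of the same age came next (Z = -2.25). As for the labelled tissue, total blood, red-cell microRNAs dominated, and the listed leukocyte microRNAs were present at medians of 4.71% to 5.77% of the counts outside miR-486. The list for platelets and endothelium held only miR-126a-3p and miR-126a-5p, and its summed share had medians of no more than 0.00374%. The highest library, of 12 months, had 0.0122%. This share does not cover other microRNAs of platelets.

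The members differed widely in abundance. miR-451a gave 2291261 counts in all, a mean of 5692 ± 4021 CPM (SD, n = 40) and 8.44% ± 4.48 of the counts outside miR-486, and ranked 6 among all microRNAs by mean share. miR-144-5p gave 7533 counts, 18.9 ± 12.8 CPM (SD, n = 40), and ranked 84. miR-144-3p gave 735 counts, 1.91 ± 1.69 CPM (SD, n = 40), and ranked 175. These values compare counts and not molecules, since adapters join to different sequences with different ease. With more than 100 reads in at least 20 libraries required, 105 microRNAs were tested, among them miR-451a and miR-144-5p. miR-144-3p passed 100 reads in 1 library and was tested in a fit over the 345 microRNAs with more than 1 read in at least 20 libraries.

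miR-144-5p was the member that changed most clearly with age. It fell from 12 to 13.5 months and rose again by 15 months. Its level ran from 3.59 to 5.30 log2 CPM at 12 months with a median of 4.43, and from 1.87 to 4.76 at 13.5 months with a median of 2.20. At 15 months it ran from 3.19 to 4.61 with a median of 4.19, and at 16.5 months from 4.02 to 4.96 with a median of 4.37. Of the 10 libraries of 13.5 months, 8 lay below every library of 12 and of 15 months and 9 below every library of 16.5 months, while the ranges of the other ages overlapped. The mean levels were 4.41 ± 0.50 at 12 months, 2.57 ± 0.97 at 13.5 months, 4.04 ± 0.50 at 15 months and 4.44 ± 0.29 at 16.5 months (SD, n = 10 each). Behind them stood medians of 353.5, 67.5, 83.5 and 228.5 reads per library, in the same order of ages.

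**Figure D1:**
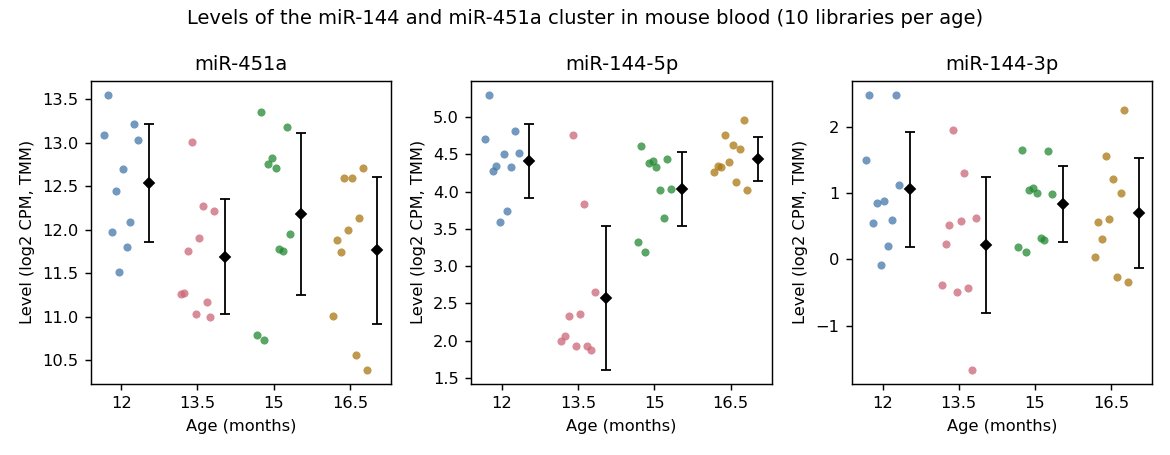
Level of miR-451a, miR-144-5p and miR-144-3p in log2 CPM (vertical axis, TMM factors) at the 4 ages in months. Each coloured point is a library, the diamond is the mean of 10 libraries and the bar its SD. For miR-144-5p, 8 points of 13.5 months lie below all of those at 12 and 15 months, while the ages overlap throughout for miR-451a and miR-144-3p.

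Over the 4 ages miR-144-5p differed with an adjusted p of 4.60e-05 in edgeR's quasi-likelihood test, as did 61% of the 105 microRNAs tested by the same rule. At 13.5 against 12 months it was lower by 3.02-fold, a log2 fold change of -1.60 (SE 0.29, 95% interval -2.17 to -1.02, edgeR adjusted p = 3.01e-05), with 9 of 10 libraries below the mean of 12 months. Among all tested microRNAs 14.3% were called lower in this comparison, and miR-144-5p had the 3rd most negative change of the 105, after miR-3969 (-2.96) and miR-19b-3p (-1.94). At 15 against 13.5 months it was higher by 2.36-fold (log2 1.24, SE 0.30, edgeR adjusted p = 0.00059), in 10 of 10 libraries against the mean of 13.5 months, where 17.1% of microRNAs were called higher. By mean level the order from the highest was 16.5, 12, 15 and 13.5 months, although the medians and the fitted change put 12 months first, and of the neighbours in that order 15 and 13.5 months differed beyond their spread. Neither 15 against 12 months (-0.36, 95% interval -0.92 to 0.20, edgeR adjusted p = 0.381) nor 16.5 against 12 months (-0.03, -0.58 to 0.52, adjusted p = 0.946) passed the test, and 16.2% and 10.5% of microRNAs were called lower there. At 16.5 against 15 months the value was 0.33 (adjusted p = 0.459), with 19% of microRNAs called higher. A straight line in age did not describe these levels, with an edgeR adjusted p of 0.728 for the slope.

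A library of 13.5 months, number 5 in column order, had the highest miR-144-5p level of its age. Dixon's gap test, run on each member's level and each ratio at each age, did not mark it as an outlier (0 flags in 28 groups). The library held 167 reads of miR-144-5p among 5188959 counts, a level of 4.76, against 1.87 to 3.83 in the other 9, whose median was 2.06. It also had the highest miR-144-3p level of its age, 1.95 against -1.67 to 1.30, and the highest but 1 of miR-451a, 12.28. With it left out, an alternative chosen after seeing the data, the change of miR-144-5p at 13.5 against 12 months was -2.12 (edgeR adjusted p = 2.22e-09) and that at 15 against 13.5 months 1.80 (6.84e-08). All 3 members were thus high together in this library, and the fall of miR-144-5p was larger without it. Among other microRNAs called lower at 13.5 months, the library ranked 2 of 10 from the highest for miR-26b-5p, 3 for miR-19b-3p and miR-3969, and 5 for miR-148a-3p. High levels in it were therefore not confined to the members.

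miR-144-3p, from the other arm of the same hairpin, had few reads, and its ages overlapped throughout. Its reads per library ran from 11 to 122 at 12 months (median 29.5), from 1 to 25 at 13.5 months (median 13.5), from 2 to 22 at 15 months (median 9) and from 5 to 26 at 16.5 months (median 12.5). Its level ran from -0.08 to 2.48 log2 CPM at 12 months (median 0.86), from -1.67 to 1.95 at 13.5 months (median 0.37), from 0.12 to 1.65 at 15 months (median 0.997) and from -0.35 to 2.26 at 16.5 months (median 0.59). The lowest library was of 13.5 months and the highest of 12 months. The mean levels were 1.06 ± 0.87, 0.22 ± 1.02, 0.83 ± 0.57 and 0.70 ± 0.83 (SD, n = 10 each) at 12, 13.5, 15 and 16.5 months.

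miR-144-3p did not pass the test over age (edgeR adjusted p = 0.172), while 39.1% of the 345 microRNAs in that fit did. At 13.5 against 12 months its log2 fold change was -0.93 (SE 0.38, 95% interval -1.67 to -0.19, edgeR adjusted p = 0.0938), with 8 of 10 libraries below the mean of 12 months and 9.86% of microRNAs called lower. The interval holds the change of -1.60 measured for miR-144-5p. Without library 5 of 13.5 months the value was -1.24 (edgeR adjusted p = 0.0163) and the adjusted p over age 0.0415, so that this library decided the call. At 15 against 12 months the change was -0.33 (95% interval -1.11 to 0.44) and at 16.5 against 12 months -0.63 (-1.39 to 0.13), where 8.12% and 8.99% of microRNAs were called lower. At 15 against 13.5 months it was 0.59 (-0.22 to 1.41), with 12.8% called higher, and at 16.5 against 15 months -0.29 (-1.13 to 0.54), with 5.22% called lower. The adjusted p-values of these 4 comparisons ran from 0.314 to 0.703, and their intervals hold changes in both directions.

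miR-451a, by far the most abundant product of the cluster, was also lowest in the mean at 13.5 months, but by less and with wider overlap. Its level ran from 11.52 to 13.55 log2 CPM at 12 months (median 12.57), from 11.00 to 13.01 at 13.5 months (median 11.52), from 10.73 to 13.35 at 15 months (median 12.33) and from 10.39 to 12.71 at 16.5 months (median 11.94). Of the 10 libraries of 13.5 months, 5 lay within the range of 12 months and 5 below it, and the lowest levels of all were those of libraries 6 and 7 of 16.5 months. The mean levels were 12.54 ± 0.68, 11.69 ± 0.66, 12.18 ± 0.93 and 11.76 ± 0.84 (SD, n = 10 each) at 12, 13.5, 15 and 16.5 months. Median reads per library were 101719, 34543, 28352 and 44523, so counting error was small beside the spread between libraries.

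At 13.5 against 12 months miR-451a was lower by 1.79-fold, a log2 fold change of -0.84 (SE 0.33, 95% interval -1.49 to -0.20), with 9 of 10 libraries below the mean of 12 months. Its edgeR adjusted p of 0.0495 was just under the threshold of 0.05, and the call was lost when any of 13 of the 40 libraries was left out, with values from -1.10 to -0.77 over all 40. In this fit both tested members were called lower at 13.5 months, where 14.3% of the 105 microRNAs were. In the fit over 345 microRNAs, which holds all 3 members, 1 of 3 was called, since miR-451a stood at -0.88 (adjusted p = 0.0561), against 9.86% of microRNAs. The value of miR-451a was -0.52 with 1 and -0.43 with 2 RUVs factors, which are estimated from the spread between libraries of an age, and -1.22 in limma voom, and it was called in all these. Over all ages the edgeR adjusted p of miR-451a was 0.0687. At 16.5 against 12 months the log2 fold change was -0.72 (SE 0.33, 95% interval -1.37 to -0.08, edgeR adjusted p = 0.113), and without library 7 of that age it was -0.62 (adjusted p = 0.184). The changes at 15 against 12 months (-0.25), 15 against 13.5 months (0.59) and 16.5 against 15 months (-0.47) had edgeR adjusted p-values of 0.591, 0.131 and 0.317, the last where 9.52% of microRNAs were called lower. From the highest mean level the order was 12, 15, 16.5 and 13.5 months, and no pair of neighbours that was compared differed beyond its spread; 16.5 was not compared with 13.5 months.

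**Figure D2:**
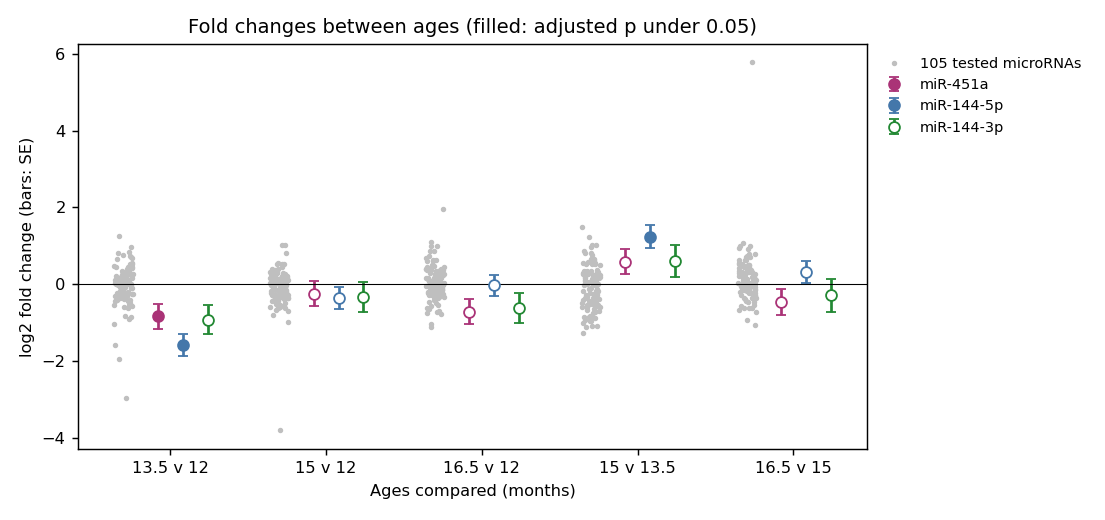
Log2 fold change from edgeR (vertical axis) for the 5 comparisons of ages in months. Grey points are the 105 tested microRNAs, large symbols are the members with their SE, and filled symbols have an adjusted p under 0.05. At 13.5 against 12 months miR-144-5p (-1.60) and miR-451a (-0.84) are filled and low, and at 15 against 13.5 months miR-144-5p (1.24) is filled and high.

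The scale on which libraries were compared moved the values most where 15 months was involved. With library totals in place of TMM factors, the median log2 fold change of all 105 microRNAs was 0.02 at 13.5 against 12 months but -0.84 at 15 against 12 months, -0.81 at 15 against 13.5 months and 0.64 at 16.5 against 15 months. On that scale miR-144-5p stood at -1.10 for 15 against 12 months and at 0.50 for 15 against 13.5 months, which no longer passed the test. Relative to the shifted median it stood at -0.26 and 1.31, close to its TMM values of -0.36 and 1.24. miR-451a changed sign on library totals at 15 against 13.5 months (-0.10) and at 16.5 against 15 months (0.12), and relative to the median it stood at 0.71 and -0.53. At 13.5 against 12 months the fall of miR-144-5p lay between -1.65 and -1.58 on all 4 scales and was called on each. miR-451a lay between -0.90 and -0.84 there, but on library totals (-0.85, edgeR adjusted p = 0.325) it was not called.

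**Figure D3:**
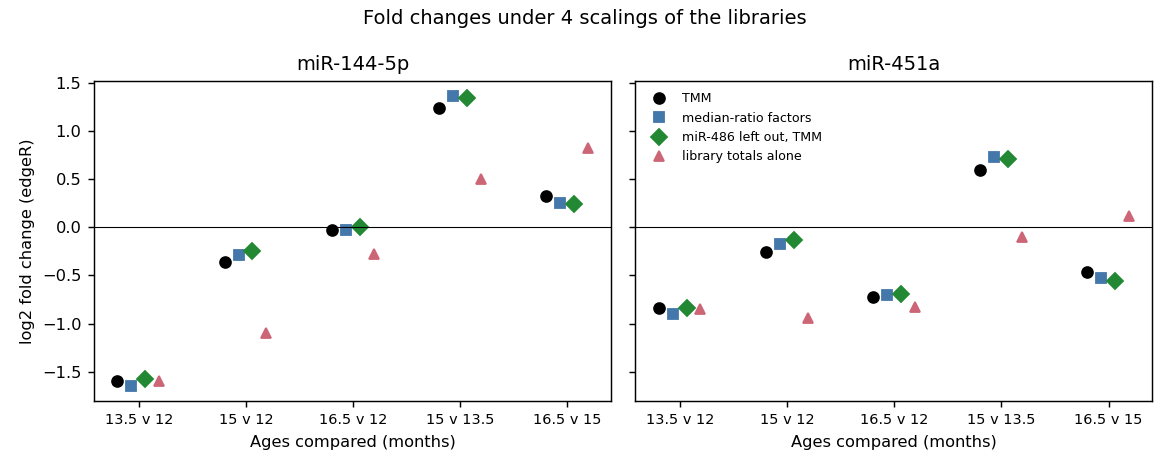
Log2 fold change (vertical axis) of miR-144-5p and miR-451a for the 5 comparisons of ages in months under 4 scalings of the libraries. Symbols coincide at 13.5 against 12 months and part where 15 months is compared, with library totals (triangles) at -1.10 and TMM factors (circles) at -0.36 for miR-144-5p at 15 against 12 months.

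Ratios of counts within a library need no scaling, and they show where the members parted from each other. The ratio of miR-451a to miR-144-5p ran from 209 to 369 at 12 months (median 287), from 184 to 1289 at 13.5 months (median 612), from 164 to 448 at 15 months (median 299) and from 48.0 to 333 at 16.5 months (median 193). The libraries of 12 months lay close together, 9 of 10 libraries of 13.5 months lay above all of them, and the exception was library 5. Its mean log2 was 8.14 ± 0.29, 9.16 ± 0.73, 8.15 ± 0.56 and 7.33 ± 0.96 (SD, n = 10 each) at the 4 ages in order. The ratio differed over age (two-sided permutation test, p = 1e-05, the smallest that 100000 resamples can give, adjusted over 4 ratios 4e-05). In log2 it rose by 1.02 from 12 to 13.5 months (SE 0.25, permutation test adjusted over 20 comparisons p = 0.0106, 9 of 10 libraries), and the difference at 15 against 13.5 months was -1.01 (SE 0.29, adjusted p = 0.0151, 10 of 10 libraries). At 13.5 months miR-144-5p was thus reduced more than miR-451a, by 2.03-fold.

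At 16.5 months the same ratio was lower than at 12 months, with a difference of -0.81 (SE 0.32, permutation adjusted p = 0.0498, 8 of 10 libraries). That call rested on the libraries that stood apart. Without library 7 the difference was -0.61 (adjusted p = 0.070), and without libraries 6 and 7, left out together after seeing the data, it was -0.46 (adjusted p = 0.0979). At 15 against 12 months the ratio differed by 0.007 (adjusted p = 0.972).

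The arms of the miR-144 hairpin also changed in proportion. miR-144-5p exceeded miR-144-3p in every library, and the median ratio was 12.4 at 12 months (range 5.06 to 16.1), 6.15 at 13.5 months (3.18 to 16.3), 9.96 at 15 months (5.80 to 16.6) and 17.8 at 16.5 months (5.12 to 28.9). All 4 ranges overlapped, with the lowest ratios at 13.5 and the highest at 16.5 months. Summed over libraries, miR-144-5p had 9.85 times the counts of miR-144-3p at 12 months, 5.87 times at 13.5 months, 9.82 times at 15 months and 16.5 times at 16.5 months. The log2 ratio differed over age (permutation test, adjusted p = 0.00157), and at 13.5 against 12 months it differed by -0.94 (SE 0.31, permutation adjusted p = 0.0324, 9 of 10 libraries). On ranks the adjusted p of that difference was 0.0617. The differences of 0.68 at 15 against 13.5 months (adjusted p = 0.0701) and of 0.63 at 16.5 against 15 months (adjusted p = 0.084) missed the threshold, and the latter was 0.80 (adjusted p = 0.0330) without library 7 of 16.5 months. The ratio rests on few reads of miR-144-3p, and since the reads carry no molecular identifiers, copies made by PCR were counted too.

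miR-451a was further set against miR-23a-3p, which serves in plasma work as a reference that red-cell lysis leaves little changed, and against miR-486a-5p. Reads of miR-451a per read of miR-23a-3p had medians of 223 at 12 months (range 124 to 358), 106 at 13.5 months (70.9 to 255), 214 at 15 months (79.7 to 329) and 111 at 16.5 months (46.9 to 172). The ages overlapped, with 12 and 15 months high and 13.5 and 16.5 months low. In log2 the ratio differed from that of 12 months by -0.97 at 13.5 months (SE 0.24, permutation adjusted p = 0.0107, 9 of 10 libraries), and by -1.13 at 16.5 months (SE 0.26, adjusted p = 0.0086, 10 of 10 libraries). At 16.5 against 15 months the difference was -0.94 (adjusted p = 0.0324), and -0.82 (adjusted p = 0.0533) without library 7. The level of miR-23a-3p was itself higher at 16.5 months, by a log2 fold change of 0.37 against 12 months (edgeR adjusted p = 0.0239) and of 0.53 against 15 months (adjusted p = 0.00103), so these ratios hold its change as well as that of miR-451a. At 13.5 against 12 months miR-23a-3p stood at 0.12 (adjusted p = 0.495). Against miR-486a-5p the mean log2 ratio was -6.00 ± 0.98, -6.87 ± 0.88, -7.25 ± 1.52 and -7.06 ± 1.46 (SD, n = 10 each) and did not pass the test over age (permutation adjusted p = 0.137).

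**Figure D4:**
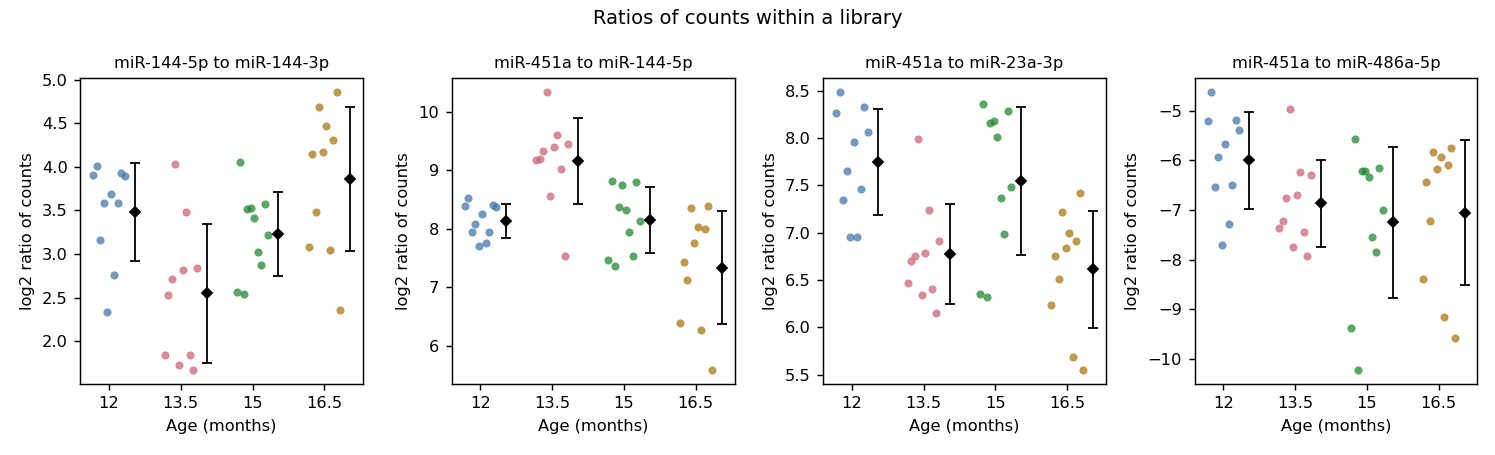
Log2 ratio of counts within each library (vertical axes) for 4 pairs of microRNAs at the 4 ages in months. Each coloured point is a library, the diamond is the mean of 10 and the bar its SD. The ratio of miR-451a to miR-144-5p is tight at 12 months (8.14 ± 0.29), raised at 13.5 months (9.16 ± 0.73) and widest at 16.5 months (7.33 ± 0.96).

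Within an age miR-144-5p varied together with miR-144-3p from library to library, and over the 40 libraries with miR-451a, while miR-144-3p and miR-451a were not shown to vary together. Over the 40 deviations from the age means, miR-144-5p and miR-144-3p correlated with a Pearson r of 0.71 (permutation within ages, adjusted over 6 relations p = 3e-05, Spearman rho 0.65, r without the 2 outermost libraries 0.65). Within the ages the r of the arms was 0.84, 0.77, 0.61 and 0.73 (n = 10 libraries each). miR-144-5p and miR-451a had an r of 0.56 (adjusted p = 0.00014, rho 0.59, r without the 2 outermost libraries 0.56). Here r was 0.92 at 12 months, 0.67 at 13.5 months and 0.87 at 15 months, but -0.25 at 16.5 months. For miR-144-3p and miR-451a r was 0.22 (adjusted p = 0.196), with 0.85, 0.36, 0.55 and -0.65 within the ages. Without library 7 the r of miR-144-5p and miR-451a at 16.5 months was 0.11 (n = 9), and without libraries 6 and 7 it was -0.30 (n = 8). Differences in r between ages were not tested. All these levels share a library's depth and RNA. Those of miR-144-5p and miR-451a also share its TMM factor, while miR-144-3p was scaled by the factor from the fit over 345 microRNAs.

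**Figure D5:**
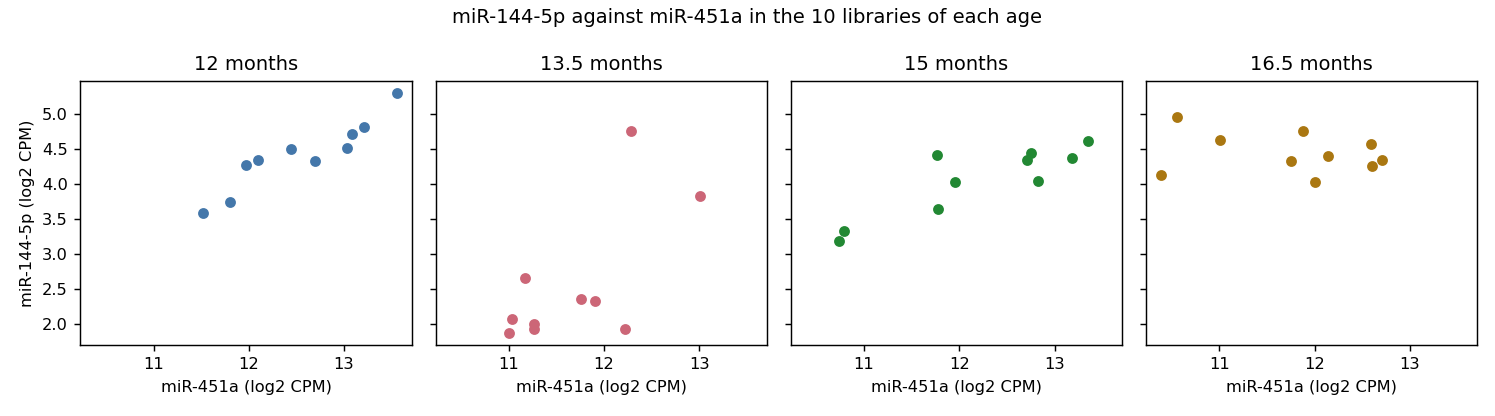
Level of miR-144-5p against that of miR-451a, both in log2 CPM, in the 10 libraries of each age, with shared axes. The points rise together at 12 months (r = 0.92) and 15 months (r = 0.87), lie low with a pair of raised libraries at 13.5 months (r = 0.67) and are flat at 16.5 months (r = -0.25).

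miR-451a also followed how much of a library was not miR-486. Its deviations correlated with those of the log2 share of counts outside miR-486 and the members with r = 0.80 (permutation adjusted p = 3e-05, rho 0.74, r without the 2 outermost libraries 0.74), and within ages with r = 0.88, 0.52, 0.84 and 0.87 (n = 10 each). For miR-144-5p this r was 0.38 (adjusted p = 0.00827, rho 0.45, 0.30 without the 2 outermost libraries), and for miR-144-3p it was 0.04 (adjusted p = 0.808). The pair of 15-month libraries with the lowest TMM factors, 0.242 and 0.417, had the lowest levels of both miR-451a (10.73 and 10.79) and miR-144-5p (3.19 and 3.33) at that age. Libraries 6 and 7 of 16.5 months, with factors of 0.469 and 0.561, had the lowest miR-451a (10.39 and 10.56) but miR-144-5p levels of 4.13 and 4.96, the latter the highest of the age. The part of library composition in the members' levels was not tested.

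Over all 40 libraries the level of miR-144-5p was most like that of miR-19b-3p (Pearson r = 0.79), a product of the miR-17-92 family of clusters, then miR-15b-3p (0.71) and miR-30e-5p (0.69). With age means removed these values were 0.55, 0.59 and 0.66. miR-19b-3p also fell at 13.5 against 12 months, by a log2 fold change of -1.94 (SE 0.26, edgeR adjusted p = 2.06e-07). For miR-144-3p the most alike were miR-144-5p (0.66), miR-19b-3p (0.49) and miR-30e-5p (0.46). The closest to miR-451a were miR-21a-5p (0.85), miR-181c-5p (0.85) and miR-26b-5p (0.80), of which miR-26b-5p was called lower at 13.5 months (-0.92, edgeR adjusted p = 0.0041). The nearest neighbours of miR-451a in level were thus none of the microRNAs listed here as red-cell ones, and miR-21a-5p is on the leukocyte list.

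Of 12 other red-cell microRNAs listed, 8 were tested. At 13.5 against 12 months edgeR called 0 of 8 lower, beside 14.3% of the 105 microRNAs. In either direction 0 of 8 had an unadjusted edgeR p under 0.05. DESeq2 and limma voom also called 0 of 8, but the shares they called over all microRNAs are not given here. The median log2 fold change of the 8 was -0.01 against 0.01 over all 105 microRNAs. miR-486a-5p stood at -0.01 (SE 0.24, edgeR adjusted p = 0.97), miR-16-5p at 0.05, miR-25-3p at 0.14, miR-92a-3p at 0.11, miR-182-5p at -0.56 (SE 0.44) and both identical rows of miR-486-3p at -0.30 (SE 0.64) in that comparison. The difference between the members and these was not tested except for the ratio of miR-451a to miR-486a-5p. In log2 that ratio differed by -0.86 at 13.5 against 12 months (SE 0.42, permutation adjusted p = 0.084, 9 of 10 libraries), which missed the threshold. At 15 against 12 months both identical rows of miR-486-5p were higher, by a log2 fold change of 1.01 (SE 0.24, edgeR adjusted p = 0.0022), where 7.62% of microRNAs were called higher, and miR-16-5p was lower (-0.50, adjusted p = 0.0226). miR-144-5p and miR-451a were not called in that comparison. At 15 against 13.5 months, where miR-144-5p rose by 1.24, both identical rows of miR-486-5p were also higher (1.02, SE 0.24, edgeR adjusted p = 0.00059). There 17.1% of microRNAs were called higher, and miR-16-5p was lower (-0.55, edgeR adjusted p = 0.00407). The median change of the 8 was 0.42, against -0.02 over all 105 microRNAs. The 8 tested rows hold both identical pairs of miR-486, and miR-363-3p, miR-96-5p, miR-183-5p and miR-185-5p were too scarce to test.

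Leukocyte microRNAs were followed beside the members, since blood holds both kinds of cell, and in such bulk samples fewer red cells and less RNA per red cell cannot be told apart. Of 7 listed, 5 were tested, and edgeR called 1 of them lower at 13.5 against 12 months, beside 14.3% of all tested microRNAs. It was the myeloid miR-223-3p (-0.59, SE 0.21, edgeR adjusted p = 0.0281). DESeq2 called 3 of the 5 and limma voom 4. The shares these methods called over all microRNAs are not given, so these counts cannot be read as particular to the list. The lymphocyte microRNAs miR-150-5p (0.69, adjusted p = 0.0742) and miR-342-3p (0.37, adjusted p = 0.138) were not called there but were higher at 16.5 against 12 months (0.86, adjusted p = 0.0273, and 1.10, adjusted p = 5.71e-05), where 13.3% of microRNAs were called higher. miR-142a-5p and miR-21a-5p stood at -0.33 and -0.54 at 13.5 against 12 months, uncalled by edgeR. At 16.5 against 12 months miR-223-3p (-0.26), miR-142a-5p (-0.09) and miR-21a-5p (-0.11) were not called either. The summed share of the list outside miR-486 ran from 4.68% to 6.38% at 12 months (median 5.54%), from 3.64% to 5.92% at 13.5 months (median 4.71%), from 3.17% to 7.23% at 15 months (median 5.77%) and from 3.77% to 6.37% at 16.5 months (median 5.27%). These ranges overlapped at all ages. Their part in the members' levels was not tested.

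The members are among the microRNAs poorest in G and C, with 30.4% for miR-144-5p, 30% for miR-144-3p and 36.4% for miR-451a, against a median of 45.6% over the 90 of 105 tested microRNAs with a matched sequence. miR-144-5p had the lowest content of the 90. Across these microRNAs, which are not independent replicates, GC content correlated with the log2 fold change at 13.5 against 12 months with r = 0.33 and at 15 against 12 months with r = 0.38, and at 16.5 against 12 months with r = -0.01. At 15 against 13.5 months r was -0.00077, and at 16.5 against 15 months it was -0.27. The 45 microRNAs of lower GC content had a median change of -0.22 at 13.5 against 12 months and the other 45 one of 0.14. Beside the change of miR-144-5p, -1.60, the next poorest microRNAs stood at -0.40 (let-7f-5p), -0.11 (miR-374b-5p and miR-374c-5p), -0.33 (miR-142a-5p), -0.92 (miR-26b-5p), 0.81 (let-7j) and -2.96 (miR-3969). The part of GC content in the members' changes was not tested.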

How the data were processed

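Libraries had been made with the TruSeq small RNA kit and sequenced as 50-base single reads. The authors trimmed adapters, checked quality with FastQC (0.11.5 in the submitters' processing notes), used miRDeep2 to map reads to mm10, and deposited raw read counts per mature microRNA of miRBase, with perfect matches only and counts from several genomic locations summed. No row had the same counts as a member. The second deposited table held a normalized signal for 105 microRNAs, each column being the counts times 1 constant (largest relative deviation 4.94e-10), and was used for that check only.

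Ages came from the labels. Columns named the age and none of the labels' replicate numbers, so libraries were treated as independent although the study followed animals over time. P-values thus measure the spread between libraries. Duplicate libraries were looked for among 180 within-age pairs and none was found (smallest chi-square per degree of freedom 19.4). Column names held 10 numbers recurring at each age, unexplained in any source. Same-numbered libraries had deviations correlated with r of -0.87 to 0.86 (median -0.03, over 0.1 in 24 of 60 pairs). Such values cannot show whether the numbers mark animals. The same-numbered libraries were not taken as pairs, and the p-values leave out any pairing by animal.

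The counts were modelled in edgeR 4.0.16 under R 4.3.3 (TMM, glmQLFit, glmQLFTest over 40 libraries, Benjamini-Hochberg adjustment over all microRNAs tested, threshold 0.05). Standard errors divide the size of the log2 fold change by root F. Levels used a prior count of 2 and log2 ratios a pseudocount of 0.5, with two-sided permutation tests. The fit was tested on simulated counts. Alternatives were median-ratio factors, library totals, miR-486 left out, lower or no filter, DESeq2 1.42.0, limma 3.58.1 (voom with quality weights), 1 or 2 RUVs factors, linear age, fits to only the 2 ages compared, another pseudocount, ranks, and removal of the library with a connectivity Z-score beyond 2.5. Hairpins were folded with RNAfold 2.7.2.

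Named besides the members were miR-451b, microRNAs sharing bases 2 to 7 with a member, the 3 with the highest correlation with each member, and listed red-cell, leukocyte and platelet microRNAs. miR-3969, miR-148a-3p, let-7f-5p, miR-374b-5p, miR-374c-5p, let-7j and miR-101c were named after their values were seen. The members and lists were chosen with earlier results of these data known.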

Additional observations from a re-analysis of the deposited data

How the results depend on the processing

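The fall of miR-144-5p at 13.5 against 12 months passed the test under all 13 alternatives tried (-2.16 to -1.50) and with each of the 40 libraries left out (-2.12 to -1.51). Its test over age missed the threshold only with linear age (adjusted p = 0.728). With library totals, miR-144-5p gave -1.10 at 15 against 12 months (called) and 0.50 at 15 against 13.5 months (not called). miR-144-3p gave -1.11 at 15 against 12 months (called), -0.15 at 15 against 13.5 months and 0.19 at 16.5 against 15 months. miR-451a gave -0.85 at 13.5 against 12 months (not called), -0.10 at 15 against 13.5 months and 0.12 at 16.5 against 15 months. The uncalled change of miR-144-5p at 16.5 against 12 months turned positive without miR-486 (0.00015) and with 1 or 2 RUVs factors (0.18 and 0.16).

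With limma voom, miR-144-3p was called over age (adjusted p = 0.00306), at 13.5 against 12 months (-1.31) and at 15 against 13.5 months (1.14). The adjusted p of miR-451a over age was 0.039 with median-ratio factors, 0.0398 without miR-486, 0.0175 in DESeq2, 0.000471 in limma voom, 0.000113 with 1 RUVs factor and 3.19e-06 with 2. Its change at 13.5 against 12 months was -0.88 and uncalled with the low filter. At 16.5 against 12 months it was called in limma voom (-0.73) and with 1 or 2 RUVs factors (-0.43 and -0.46). At 15 against 13.5 months it was called in DESeq2 (0.72), limma voom (0.96) and with 1 or 2 RUVs factors (0.37 and 0.48). At 16.5 against 15 months it was called with 1 or 2 RUVs factors (-0.28 and -0.51), and at 15 against 12 months the sign turned with 2 (0.0490). The causes were not tested.

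Leaving out each library in turn was chosen after seeing the data. It moved miR-144-5p at 16.5 against 12 months from -0.10 to 0.0802, miR-144-3p over age from an adjusted p of 0.0415 to 0.413 and at 13.5 against 12 months from -1.24 to -0.67. For miR-451a the adjusted p over age ran from 0.0137 to 0.105, under the threshold in 18 of 40 fits. Its change at 13.5 against 12 months ran from -1.10 to -0.77, uncalled without libraries 1 or 2 of 12 months, 3, 4, 8 or 9 of 13.5 months, 1, 5, 6, 8, 9 or 10 of 15 months, or 3 of 16.5 months. At 15 against 13.5 months it ran from 0.44 to 0.90, called without library 7 of 13.5 months.

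For the ratios, 86 of 96 alternative values kept direction and call. On ranks, which keep the log2 difference, 3 calls were lost: miR-144-5p to miR-144-3p at 13.5 against 12 months (-0.94), miR-451a to miR-144-5p at 16.5 against 12 months (-0.81, adjusted p = 0.0792) and miR-451a to miR-23a-3p at 16.5 against 15 months (-0.94, adjusted p = 0.0599). Without library 7 of 16.5 months, and without libraries 6 and 7, these last 2 gave -0.61 and -0.46, and -0.82 and -0.69, uncalled, while miR-144-5p to miR-144-3p at 16.5 against 15 months gave 0.80 and 0.92, called. With a pseudocount of 1, miR-451a to miR-144-5p at 15 against 12 months was -0.00459.

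The planned replicate block could not be fitted, because the columns carry none of the labels' numbers. A replicate block of the recurring column numbers, added after seeing the data, called 66 microRNAs over age against 64 and changed no call of a member over age (adjusted p = 3.35e-06 for miR-144-5p, 0.0877 for miR-451a and 0.124 for miR-144-3p). Few reads limited miR-144-3p, with 1 to 122 per library.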
